A study of Bos taurus with 39 samples.

Results

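The level of 2 mature miRNAs of bovine oocytes is described here in every library: bta-miR-31, a known miRNA, and predicted miR-79, a candidate found in these same reads and given its number by the prediction. They are 2 of 1995 mature miRNAs in the count tables, 1 of the 1030 known and 1 of the 965 predicted ones. They were put together because the study's table of differentially expressed predicted miRNAs names miR-31-5p as the entry with the seed of predicted miR-79. That candidate was chosen by its measured difference between CBX and Coculture at 1 h, so that contrast is described below without a test.

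The oocytes came from slaughterhouse ovaries and were matured in vitro. Control oocytes stayed inside the cumulus-oocyte complex (COC), and CBX oocytes did so with carbenoxolone, a drug that blocks gap junctions, in the medium. Denuded oocytes were stripped of cumulus cells and matured alone, and Coculture oocytes were stripped and matured in the same medium as COCs, kept apart from them by a porous insert. Each treatment was sampled at 1, 6 and 22 h and Control also at 0 h, which gives 13 conditions of 3 libraries each and 39 libraries in all. The Control and CBX oocytes were freed of cumulus cells after maturation, and the denuded ones were treated with pronase at that step, so the comparisons of enclosed with denuded oocytes also differ in handling. According to the methods, oocytes were pooled for each library, and those with a visible polar body were picked. The study treated the pool of ovaries as a batch, and the replicate number is taken for it here, which the labels do not state. The labels give no age or breed.

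A miRNA is a short RNA that guides Argonaute proteins to messenger RNAs and lowers their translation or stability. It finds its targets mainly through the seed, bases 2 to 8 counted from the 5′ end, so miRNAs that share a seed can share targets. Cumulus cells send small molecules into the oocyte through gap junctions at the ends of thin projections, which is the route that carbenoxolone blocks and that stripping removes. miR-31 is conserved among vertebrates and is best known from work on tumour invasion and on epithelial cells. A predicted miRNA is a claim made from reads that stack on a sequence able to fold into a hairpin, and its precursor was not tested here.

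The sequence of predicted miR-79 is shown because its seed is the reason it stands beside bta-miR-31. Capitals mark bases 2 to 8, and below it stand the predicted miRNA of the same table that shares the longest run with it and the single one with a lower share of G and C.
predicted miR-79: uGCAAGAUuuuaagcaugaccuu
predicted miR-321: uCAGACGGuaaagcaucugccug
predicted miR-589: uUGAUUUGcauuucucuga

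Predicted miR-79 was 23 bases long and lay within a predicted precursor of 114 bases at chr11:97182562-97182675 of the ARS-UCD1.2 build, on the minus strand. The gene at that position was not analysed here. The seed entry in the table is mml-miR-31-5p, the macaque miRNA. The sequence of bta-miR-31 was not used here, so the match between the bovine miRNAs was not checked. Of the 17 other predicted miRNAs in that table, 0 had the same 7 bases at positions 2 to 8, and the longest run shared with any of them was the 6 bases common to predicted miR-321. With 34.8% G and C, predicted miR-79 ranked as number 2 from the low end of the 18 sequences, which ran from 31.6% to 100% with a median of 61.1%. RefSeq places the MIR31 gene in an overlap with IFNE, an interferon gene, next to the long non-coding RNA LOC101907986 (names only, from the ARS-UCD2.0 assembly).

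Both miRNAs were present in 39 of 39 libraries. Across them bta-miR-31 collected 6736 counts and ranked as number 31 of the 498 known miRNAs with any count, with 0.526% of all known counts. Predicted miR-79 collected 3525 counts, ranked as number 75 of 957, and held 0.202% of the predicted counts. No other entry had the same counts in every library as either of them. The libraries held 11985 to 175429 counts (median 70069), and 3 of them, Control 0 h replicate 1, Control 6 h replicate 1 and CBX 22 h replicate 2, held fewer than 25000.

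Levels are given in CPM, the count scaled to a common total by the sum of known and predicted counts in that library (counts per 1000000 counts). The 3 counts taken as the limit of detection came to 17.1 to 250.3 CPM, depending on the library. bta-miR-31 was above that limit in all 39 libraries, with 14 to 707 counts. Predicted miR-79 was at or under it in 2 libraries, the shallow Control 0 h replicate 1 with 3 counts and the deeper Control 6 h replicate 3 with 1 count. The exact binomial 95% interval of that single count among 56935 was 0.445 to 97.9 CPM, and that of the 3 counts was 51.6 to 731 CPM. These intervals cover counting error only.

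**Figure D1:**
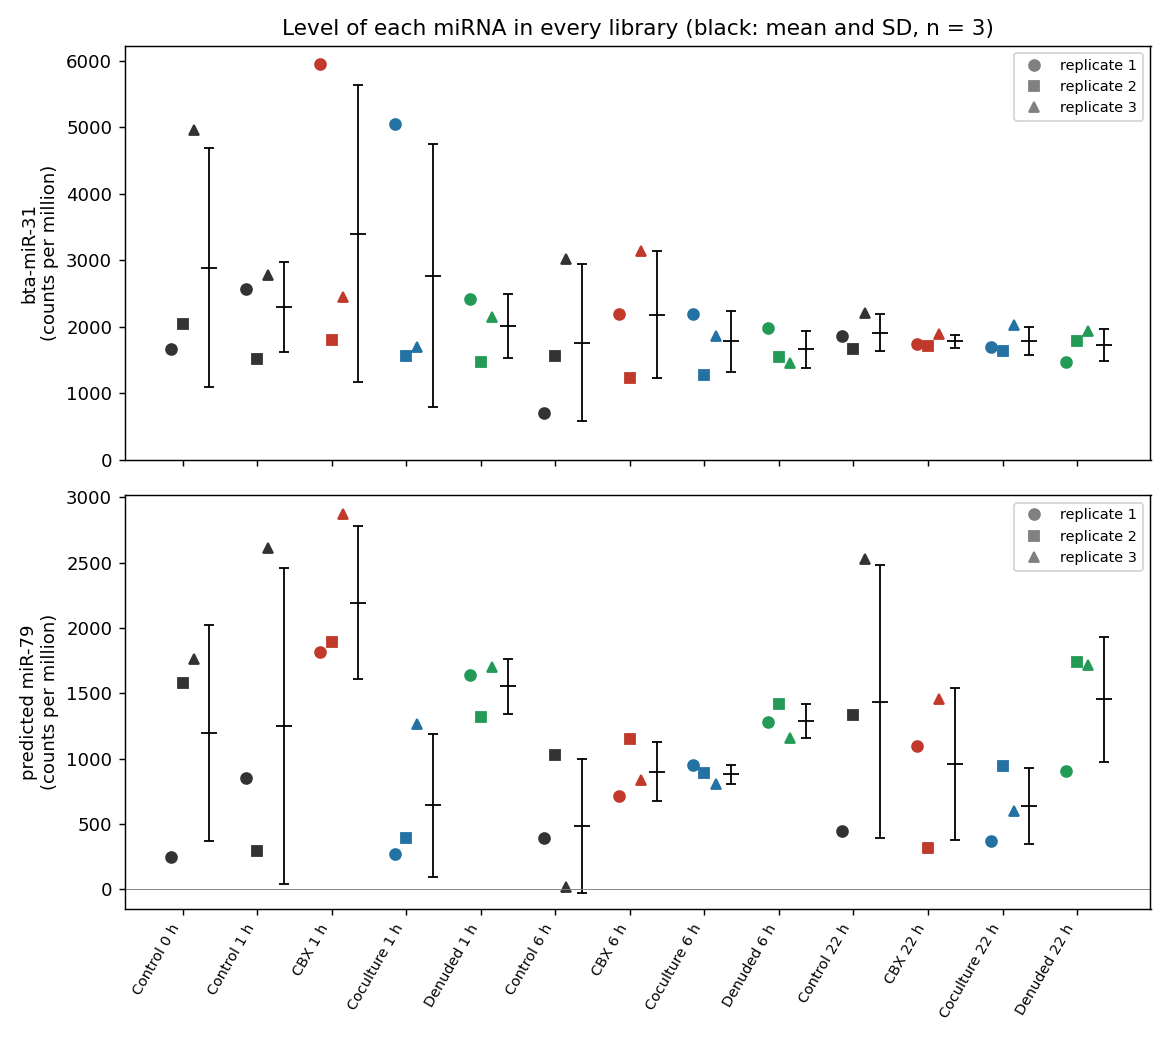
Level of bta-miR-31 (top) and predicted miR-79 (bottom) in CPM (y axis, linear) in the 39 libraries by condition (x axis), with marker shape for the replicate and black bars for mean and SD (n = 3). bta-miR-31 lay between 694 and 5951 CPM and drew together at 22 h, while predicted miR-79 ran from 17.6 to 2870.1 CPM and spread most widely in Control.

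bta-miR-31 lay at similar levels in most libraries, with a few high ones at 0 and 1 h. In Control it measured 1669, 2032 and 4948 CPM at 0 h in replicates 1 to 3. At 1 h the Control values were 2569.6, 1518 and 2779 CPM. At 6 h they were 694, 1558 and 3021 CPM, and at 22 h 1857, 1655 and 2204 CPM. The Control libraries therefore differed more from each other at 0 and 6 h than at 22 h.

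In CBX, bta-miR-31 measured 5951, 1797 and 2446 CPM at 1 h. The values were 2183, 1219 and 3135 CPM at 6 h, and 1733, 1702 and 1889 CPM at 22 h. The CBX 1 h library of replicate 1 was the highest of all 39, and the 22 h libraries were nearly level.

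In Coculture, bta-miR-31 measured 5046, 1553 and 1688 CPM at 1 h, 2191, 1276 and 1858 CPM at 6 h, and 1691, 1627 and 2027 CPM at 22 h. In Denuded it measured 2407, 1469 and 2146 CPM at 1 h, 1972, 1541 and 1455 CPM at 6 h, and 1461, 1776 and 1934 CPM at 22 h. Here too 1 library, Coculture 1 h replicate 1, stood above the rest. The Denuded libraries lay the closest together of the treatments at 1 and 6 h. At 22 h the SD was 241 CPM in Denuded, 215 CPM in Coculture and 100 CPM in CBX.

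By mean, the order of bta-miR-31 began with CBX 1 h (3398 ± 2235 CPM, SD, n = 3), Control 0 h (2883 ± 1798), Coculture 1 h (2762 ± 1979), Control 1 h (2289 ± 676) and CBX 6 h (2179 ± 958). It went on through Denuded 1 h (2007 ± 484), Control 22 h (1905 ± 278), Coculture 22 h (1782 ± 215), CBX 22 h (1775 ± 100) and Coculture 6 h (1775 ± 463). It ended with Control 6 h (1758 ± 1176), Denuded 22 h (1724 ± 241) and Denuded 6 h (1656 ± 277). Every neighbouring pair in this order overlapped.

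Predicted miR-79 was at its highest in CBX at 1 h and at its lowest in Control at 6 h, and its Control libraries scattered over more than an order of magnitude. In Control it measured 250.3, 1579 and 1763 CPM at 0 h. At 1 h the Control values were 853, 291 and 2610.1 CPM. At 6 h they were 396, 1032 and 17.6 CPM, and at 22 h 447, 1332 and 2532 CPM. The Control library of replicate 3 was thus the highest at 0, 1 and 22 h and the lowest at 6 h.

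In CBX, predicted miR-79 measured 1818, 1897 and 2870.1 CPM at 1 h. It measured 716, 1150.0 and 839 CPM at 6 h, and 1101, 319 and 1454 CPM at 22 h. All 3 CBX libraries at 1 h lay above all CBX libraries at later times. The lowest of them, at 22 h in replicate 2, rested on 6 counts in 1 of the 3 shallow libraries (exact binomial 95% interval 117 to 695 CPM).

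In Coculture, predicted miR-79 measured 268, 391 and 1269.6 CPM at 1 h, 950.1, 888 and 808 CPM at 6 h, and 372, 946 and 599 CPM at 22 h. In Denuded it measured 1644, 1316 and 1705 CPM at 1 h, 1283, 1419 and 1159 CPM at 6 h, and 903.0, 1742 and 1717 CPM at 22 h. Of the 9 Denuded libraries, all but the 22 h library of replicate 1 lay above every Coculture library except that of replicate 3 at 1 h. The Coculture libraries at 1 h belong to the contrast that chose predicted miR-79.

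The mean of predicted miR-79 was 2195 ± 586 CPM (SD, n = 3) in CBX 1 h, 1555 ± 209 in Denuded 1 h, 1454 ± 478 in Denuded 22 h, 1437 ± 1047 in Control 22 h and 1287 ± 130 in Denuded 6 h. It was 1251 ± 1210.0 in Control 1 h, 1197 ± 825 in Control 0 h, 958 ± 581 in CBX 22 h and 902 ± 224 in CBX 6 h. The low end held Coculture 6 h (882 ± 71.4), Coculture 1 h (643 ± 546), Coculture 22 h (639 ± 289) and Control 6 h (482 ± 513). Of the neighbours in this order, only the 2 at the top, CBX 1 h and Denuded 1 h, did not overlap with each other. The 3 Denuded conditions were within the 5 highest means and the 3 Coculture conditions within the 4 lowest. The difference of CBX 1 h and Coculture 1 h chose predicted miR-79, so the places of these conditions are not independent of that choice.

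The spread between libraries differed by treatment. Over the 9 libraries at 1, 6 and 22 h, the coefficient of variation of predicted miR-79 was 20.5% in Denuded, 46.2% in Coculture, 56.5% in CBX and 89.7% in Control. For bta-miR-31 it was 19.2% in Denuded, 36.9% in Control, 53.8% in Coculture and 57.9% in CBX. Over these pooled times, where differences between times count as spread, Denuded was the least variable for both. Within single times it was so for both at 1 h, for bta-miR-31 at 6 h and for predicted miR-79 at 22 h. At 6 h predicted miR-79 varied less in Coculture (8.1%) than in Denuded (10.1%). At 22 h bta-miR-31 varied less in CBX (5.63%) and Coculture than in Denuded (13.98%). The pooled CBX and Coculture values of predicted miR-79 include the 1 h libraries that chose it. These values were not tested against each other, and a single library weighs heavily in them, such as the Control 6 h library of 1 count.

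The contrast on which predicted miR-79 was selected comes first, as a description. At 1 h its mean was 643 CPM in Coculture and 2195 CPM in CBX, a ratio of means of 0.293, with every CBX library above every Coculture library. The log2 fold change of Coculture over CBX from edgeR was -2.02 (SE 0.32). bta-miR-31 in the same libraries gave -0.36 (SE 0.20), and its values overlapped between the groups because both had 1 high library of replicate 1. The other comparisons that use these 6 libraries share the selection. Among them, predicted miR-79 gave log2 fold changes of 1.16 (SE 0.35) for CBX over Control, -0.84 (SE 0.38) for Coculture over Control, -0.50 (SE 0.34) for Denuded over CBX and 1.51 (SE 0.40) for Denuded over Coculture at 1 h. From 1 h to 6 h it gave -1.23 (SE 0.36) in CBX and 0.81 (SE 0.47) in Coculture, and from 1 h to 22 h -1.22 (SE 0.38) in CBX and 0.28 (SE 0.43) in Coculture.

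The comparisons that leave those libraries out were tested. They ask whether contact with cumulus cells, open gap junctions or shared medium goes along with another level of the miRNA at the same time. They were 13 comparisons of 2 treatments at 1 time, 6 comparisons of 2 treatments over 6 and 22 h together, and 11 comparisons of 2 times within a treatment. The comparisons share libraries with each other. Each was fitted over all miRNAs that passed the low-count filter (375 to 474) with the quasi-likelihood F-test of edgeR and the replicate number as a block. A call needed a Benjamini-Hochberg adjusted p under 0.05 and a log2 fold change of at least 1 in either direction. Both miRNAs passed the filter in every comparison.

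Neither miRNA was called in any of them with edgeR, and neither was called with DESeq2. With DESeq2, predicted miR-79 in Denuded over Coculture over 6 and 22 h had an adjusted p of 0.034. It was uncalled because its log2 fold change there was 0.89. For bta-miR-31, 0 of the 13, 0 of the 6 and 0 of the 11 comparisons had an unadjusted p under 0.05. For predicted miR-79, 4 of the 13, 1 of the 6 and 0 of the 11 did. Of all miRNAs tested, an unadjusted p that low was found for 37 of 423 in Denuded over Coculture at 6 h, 30 of 420 in the same comparison at 22 h, 36 of 426 in Denuded over CBX at 6 h, 24 of 464 in Coculture over Control at 22 h and 13 of 407 in Denuded over Coculture over both times. Among all miRNAs tested the same fits called few: 2.35% in Denuded over CBX at 6 h, 0.473% in Denuded over Coculture at 6 h, 0.216% in Coculture over Control at 22 h and 0.232% in Denuded over CBX at 22 h. They called 0.44% in Control from 1 to 22 h, 0.227% in CBX from 6 to 22 h and 1.81% in Denuded from 1 to 22 h. Over 6 and 22 h together they called 0.24% in Coculture over CBX and 0.234% in Denuded over CBX, and in all other of these comparisons 0%.

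**Figure D2:**
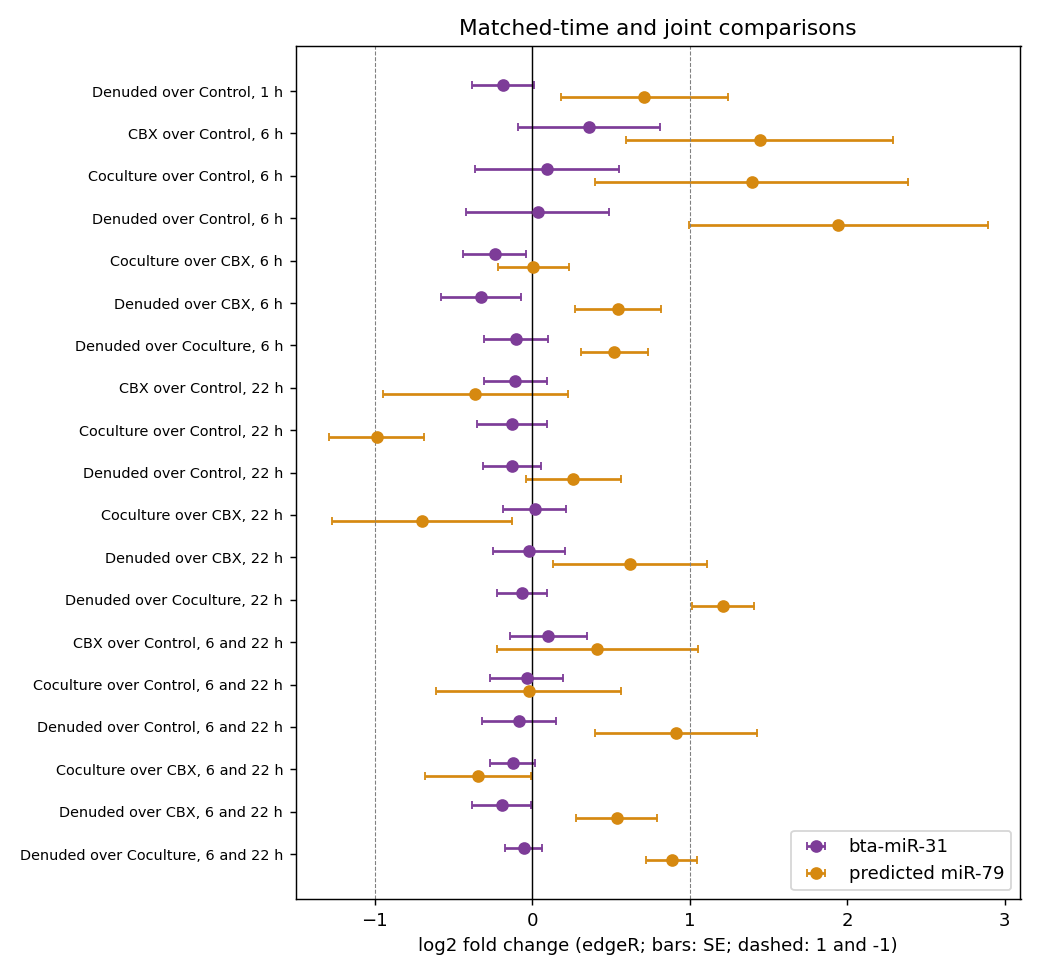
Log2 fold change from edgeR (x axis, bars SE) of bta-miR-31 and predicted miR-79 in the 13 tested comparisons at 1 time and the 6 over 6 and 22 h together (y axis). bta-miR-31 stayed between -0.32 and 0.36 throughout, while predicted miR-79 ranged from -0.99 to 1.94, with wide bars wherever Control at 6 h took part.

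The difference that stood out for predicted miR-79 was between the 2 kinds of stripped oocytes, which were stripped in the same way. They differed in whether COCs shared the medium, and with that in the culture insert and in the number of oocytes per well. At 6 h the Denuded libraries (1283, 1419 and 1159 CPM) all lay above the Coculture libraries (950.1, 888 and 808 CPM). At 22 h Denuded measured 903.0, 1742 and 1717 CPM and Coculture 372, 946 and 599 CPM, so that the groups overlapped by 1 library each but each Denuded library exceeded its Coculture partner of the same replicate. The ratios of means were 1.46 at 6 h and 2.27 at 22 h.

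By edgeR, predicted miR-79 was higher in Denuded by a log2 fold change of 0.52 (SE 0.21) at 6 h, with an adjusted p of 0.42. At 22 h the log2 fold change was 1.21 (SE 0.20), with an adjusted p of 0.059, and predicted miR-79 had the smallest p of the 420 miRNAs tested. Over both times together it was 0.88 (SE 0.16), with an adjusted p of 0.10, again the smallest p of the 407 tested. That joint fit took each time and replicate number as a block of its own. With time and replicate number as separate blocks, the log2 fold change was 0.88 and the adjusted p 0.67. The adjusted values miss the threshold in these fits, and with a log2 fold change under 1 the joint comparison could not have been called. The medians over all miRNAs tested were -0.03, -0.01 and 0.01, all close to 0.

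At 22 h the call depended on the libraries and the filter. The adjusted p ranged from 0.00018 to 1 over 13 alternatives in edgeR and DESeq2, and was under 0.05 in 4 of them, without replicate 1 (0.042), without replicate 2 (0.00018), with no low-count filter (0.026) and with known and predicted miRNAs fitted apart (0.047). Without replicate 3 it was 0.41, without the replicate block it was 0.66, and the log2 fold change lay between 0.95 and 1.42 throughout.

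The same pairs can be read without a model. Predicted miR-79 was higher in Denuded in 6 of 6 pairs of the same time and replicate at 6 and 22 h, by 0.88 ± 0.43 (SD) on the log2 scale, and it alone of the 407 miRNAs tested was so (0.246%). Only this direction was counted, and miRNAs lower in Denuded in 6 of 6 pairs were not. The exact sign-flip permutation test over the 6 pairs gave a two-sided p = 0.03125, the smallest it can give, and 0.281 after adjustment over the 18 such tests. The test takes the 6 pairs as independent, but the same replicate numbers enter at 6 and at 22 h. If a replicate number stands for 1 pool at both times, this p is too small. All Denuded above all Coculture libraries was seen for 3.55% of miRNAs at 6 h and for 3.57% at 22 h, where predicted miR-79 was not among them. bta-miR-31 was higher in Denuded in 2 of the 6 pairs, with a mean difference of -0.06 ± 0.23.

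**Figure D3:**
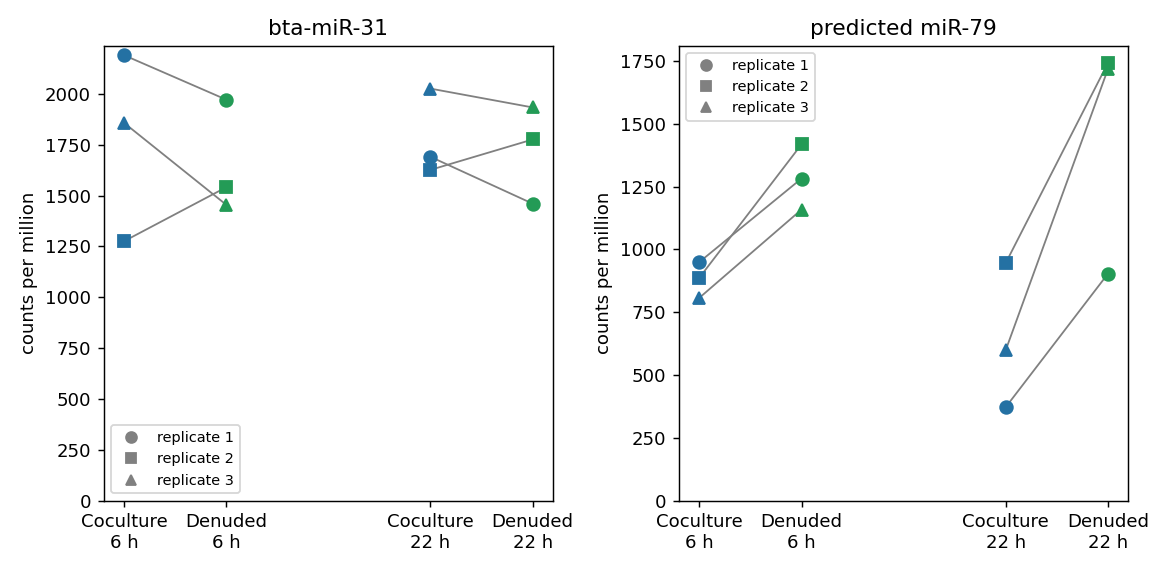
CPM (y axis, from 0) of bta-miR-31 and predicted miR-79 in Coculture and Denuded at 6 and 22 h (x axis), with lines joining libraries of the same time and replicate. All 6 lines of predicted miR-79 rise from Coculture to Denuded, and of those of bta-miR-31, 2 rise and 4 fall.

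Other cells could contribute to these pools, and the marker miRNAs listed for them were summed in the same libraries. The 7 miRNAs linked to granulosa and cumulus cells, of which bta-miR-212 was at 0, summed to 3837 to 6151 CPM in Denuded and 3995 to 8025 CPM in Coculture at 6 h. At 22 h they summed to 8127 to 15014 CPM in Denuded and 6391 to 8556 CPM in Coculture. The 4 muscle miRNAs, with bta-miR-133b at 0, summed to 226 to 913 CPM in Denuded and 88.3 to 143 CPM in Coculture at 22 h, while at 6 h they reached 167 CPM in Denuded and 3348 CPM in Coculture. The 6 blood miRNAs summed to at most 68.3 and 99.6 CPM at 22 h, with bta-miR-144 and bta-miR-142-3p at 0 in both groups. At 6 h their highest sum was 2890.0 CPM, in 1 Denuded library, against 80.8 CPM in Coculture. The muscle sums were thus higher in Denuded at 22 h without overlap, the granulosa-linked ranges reached higher there but overlapped, and neither held at 6 h. The part of these sums in the result was not tested. In Denuded oocytes, stripped before maturation, the granulosa-linked sum was 4354 to 6304 CPM at 1 h and 8127 to 15014 CPM at 22 h. It was thus higher at 22 h in oocytes that were matured without their cumulus cells. Whether it follows the number of granulosa or cumulus cells in a pool was not tested. Fewer cells of a type and less RNA per cell cannot be told apart in such pools.

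Against Control and CBX, the differences of predicted miR-79 were less regular. At 22 h it was lower in Coculture than in Control, with a log2 fold change of -0.99 (SE 0.30) and an adjusted p of 0.35 by edgeR, and lower in 3 of 3 pairs. The adjusted p of this comparison ran from 0.020 to 1.00 over the alternatives, the lowest without replicate 1 (log2 fold change -1.33). The sum of the 7 granulosa and cumulus linked miRNAs, with bta-miR-212 at 0, was also lower there. It was 12397 to 22761 CPM in Control and 6391 to 8556 CPM in Coculture. The part of these miRNAs in the result was not tested, nor was whether their sum follows the number of such cells. At 6 h predicted miR-79 was higher in Denuded than in CBX, with a log2 fold change of 0.54 (SE 0.27) and an adjusted p of 0.56. All 3 Denuded libraries lay above all 3 CBX libraries, as they did for 4.93% of miRNAs. At 6 h the Denuded libraries also lay above the 3 Control libraries, as for 6.7% of miRNAs, and the log2 fold change was 1.94 (SE 0.95, adjusted p = 0.82). That estimate rested on the Control library of 1 count, and without replicate 3 it was 0.85.

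Over 6 and 22 h together, the other log2 fold changes of predicted miR-79 were 0.41 (SE 0.64) for CBX over Control, -0.02 (SE 0.59) for Coculture over Control, 0.91 (SE 0.51) for Denuded over Control, -0.34 (SE 0.34) for Coculture over CBX and 0.54 (SE 0.26) for Denuded over CBX. The adjusted p from edgeR was 0.80 to 1.00 in these 5.

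bta-miR-31 gave 0.10 (SE 0.25) for CBX over Control, -0.03 (SE 0.23) for Coculture over Control, -0.08 (SE 0.23) for Denuded over Control, -0.12 (SE 0.14) for Coculture over CBX, -0.19 (SE 0.19) for Denuded over CBX and -0.05 (SE 0.12) for Denuded over Coculture. The adjusted p from edgeR was 0.91 to 1.00. At single times its smallest p was that of Denuded over CBX at 6 h, with a log2 fold change of -0.32 (SE 0.25) and an adjusted p of 0.82. The errors of bta-miR-31 were the smaller ones, with a median SE of 0.20 over the 13 comparisons against 0.49 for predicted miR-79.

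Maturation time moved neither miRNA past the test. For bta-miR-31 the smallest p was from 0 to 6 h in Control, with a log2 fold change of -0.71 (SE 0.39) and an adjusted p of 0.98 by edgeR. Of the 11 comparisons between times, 8 pointed down for bta-miR-31. For predicted miR-79 the smallest p was from 6 to 22 h in Coculture, with a log2 fold change of -0.57 (SE 0.29) and an adjusted p of 0.67. In Denuded, predicted miR-79 changed by -0.19 (SE 0.20) from 1 to 6 h and by 0.18 (SE 0.25) from 6 to 22 h. In Control it changed by -1.24 (SE 1.55) and 1.72 (SE 1.38) over the same steps, and the 6 h group there holds the library of 1 count.

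The ratio of the members within a library does not depend on its total. The log2 of the predicted miR-79 count over the bta-miR-31 count, with 0.5 added to each, had a median of -0.65 over the 39 libraries and a range of -6.85 to 0.23. Predicted miR-79 had the lower count in 36 libraries and the higher one in 3. Counts of different miRNAs also carry differences in capture, so only the changes of the ratio between libraries are read here.

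That ratio was steady in the Denuded oocytes, at -0.35 ± 0.20 (SD, n = 3) at 1 h, -0.36 ± 0.25 at 6 h and -0.30 ± 0.35 at 22 h. In Coculture it was -2.20 ± 1.90 at 1 h, -0.97 ± 0.39 at 6 h and -1.57 ± 0.72 at 22 h. The Control means were -1.47 ± 1.09 at 0 h, -1.34 ± 1.15 at 1 h, -2.74 ± 3.56 at 6 h and -0.72 ± 1.18 at 22 h. In CBX the ratio was -0.47 ± 1.08 at 1 h, -1.19 ± 0.97 at 6 h and -1.12 ± 1.05 at 22 h.

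The ratio was higher in Denuded than in Coculture in 6 of 6 pairs at 6 and 22 h, by 0.94 ± 0.48, with a two-sided p = 0.03125 in the exact sign-flip permutation test, the smallest possible, and 0.281 after adjustment over 18 tests. This test too takes the pairs as independent, though the same replicate numbers enter at both times. At 22 h the groups did not overlap in this ratio, unlike in CPM. An exact permutation test of 3 against 3 libraries cannot go below p = 0.1, which is what it gave there (adjusted p = 0.743 over 13 comparisons). In the other 12 comparisons at 1 time the exact permutation p was 0.2 to 0.8.

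**Figure D4:**
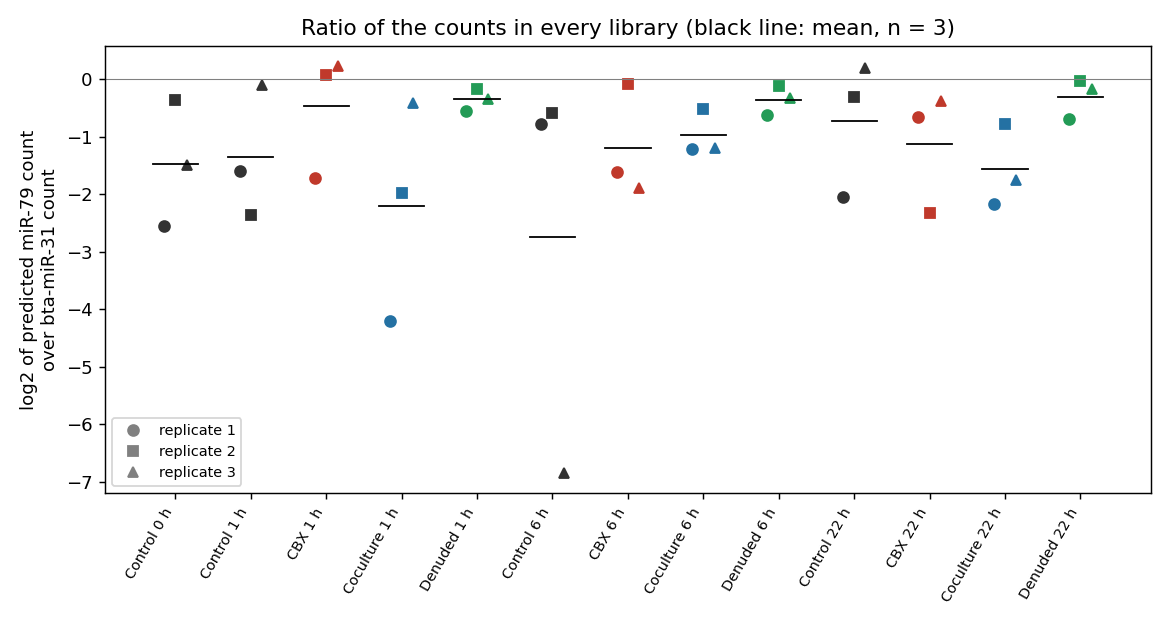
Log2 of the predicted miR-79 count over the bta-miR-31 count (y axis) in the 39 libraries by condition (x axis), with marker shape for the replicate and a black line at the mean (n = 3). The 9 Denuded libraries at 1, 6 and 22 h lie between -0.69 and -0.03, and the Control 6 h library of replicate 3 lies at -6.85.

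No relation between the levels of the members passed the test in CPM. Over the 36 libraries at 1, 6 and 22 h, Pearson's r of the log2 CPM after TMM scaling was 0.0006 (permutation p = 0.997, adjusted 0.997) and Spearman's rho 0.19 (permutation p = 0.260, adjusted 0.781). Without the 2 libraries farthest from the median of bta-miR-31, r was 0.04 and rho 0.23. Within replicates 1, 2 and 3, each of 12 libraries, r was 0.20, 0.24 and -0.29 and rho 0.21, 0.52 and 0.02. The smallest permutation p among these 10 values was 0.0844, and all adjusted values were 0.781 or more. With counts per deduplicated read, r was 0.28 (permutation p = 0.104) and rho 0.38 (permutation p = 0.0232, not adjusted). Both members are divided by a common number in each library on that scale and in CPM alike. Why the scales differ was not tested.

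**Figure D5:**
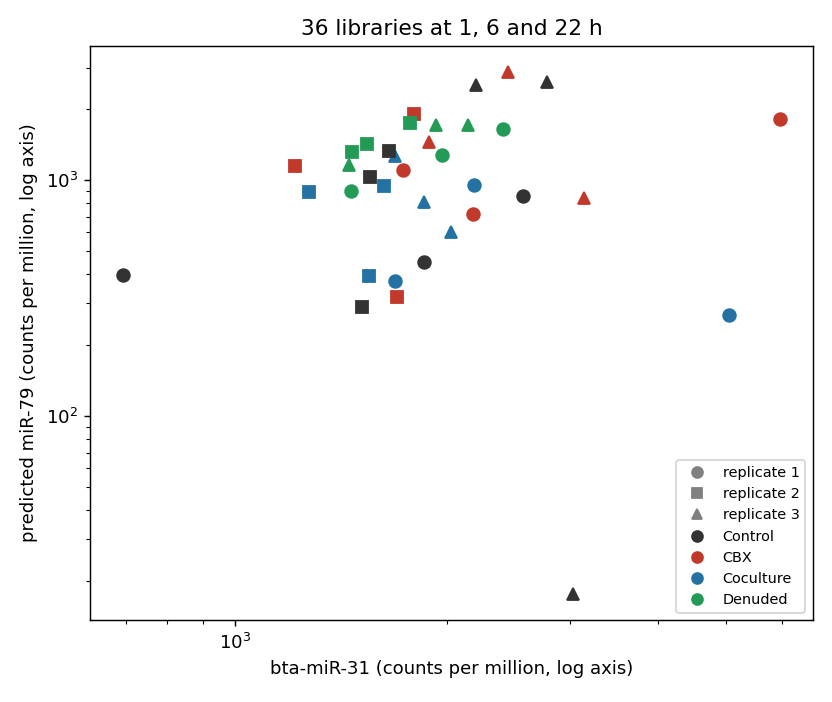
Predicted miR-79 against bta-miR-31 in CPM (both axes logarithmic) in the 36 libraries at 1, 6 and 22 h, coloured by treatment, with marker shape for the replicate. The points form no line (r = -0.020 and rho = 0.17 for the log2 of plain CPM). The replicate 2 libraries lie between 1219 and 1797 CPM of bta-miR-31, and the Control 6 h library of replicate 3 sits alone at the bottom.

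The level of bta-miR-31 differed by replicate number. Its median over 13 libraries was 1972 CPM in replicate 1, 1558 CPM in replicate 2 and 2146 CPM in replicate 3. The library of replicate 2 was the lowest of its condition in 9 of the 13 conditions and the highest in 0, and its values stayed between 1219 and 2032 CPM. For predicted miR-79 the medians were 853, 1150.0 and 1454 CPM, and replicate 1 was the lowest in 7 of 13 conditions and replicate 3 the highest in 7. Replicates hold different oocytes, and the labels do not say whether library work also followed the replicate number. The source of these differences cannot be told.

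The miRNAs whose levels ran most like each member were different. Of 440 miRNAs with at least 10 counts in at least 18 of the 36 libraries, those with the highest Spearman's rho to bta-miR-31 were bta-miR-30e-5p (0.77), bta-miR-339a (0.72), bta-miR-186 (0.70), bta-miR-20a (0.69) and bta-miR-338 (0.67). Predicted miR-79 came in place 159 of that list. For predicted miR-79 they were predicted miR-107 (0.62, with the same counts as predicted miR-108), predicted miR-84 (0.56), bta-miR-497 (0.40), bta-miR-192 (0.39) and bta-miR-103 (0.37), and bta-miR-31 came in place 71. The median over the 440 was 0.06 for bta-miR-31 and 0.03 for predicted miR-79. These libraries share pools, treatments and the scaling, so the values are a description.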

How the data were processed

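Small RNA of pooled oocytes was sequenced from 39 libraries made with a kit that tags molecules. Per the labels the authors used FastQC 0.11.9, UMI-tools 1.1.2 and ARS-UCD1.2. Per the methods, duplicates were collapsed by tag and known and predicted mature miRNAs were counted. The deposited tables hold raw counts, not normalized, which were used as they are.

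The bta-miR-31 and predicted miR-79 counts were taken from the known and predicted tables and joined. Comparisons were fitted with edgeR 4.0.16 (R 4.3.3): TMM, filterByExpr with a minimum count of 10, quasi-likelihood F-test, the replicate number as a block, taken for the ovary pool that the study's methods use as a batch, and adjustment over all miRNAs tested. The scripts were tested on simulated data.

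The members, lists and tests were chosen with earlier results of these data known. Planned tests numbered 17 and 15 at matched times and between times. Those that use the CBX or Coculture libraries at 1 h were later given without a p, which left 13 and 11. Log2 fold changes are named for all joint comparisons, and otherwise where a member's p was under 0.05 or, failing that, smallest. For predicted miR-79, Denuded over Control at 6 h is named outside this rule. So are its steps from 1 to 6 h and from 6 to 22 h in Denuded and Control. The comparisons given without a p are named as a description. Exact permutation tests were two-sided, and the permutation p of a correlation used 100000 resamples. Alternatives were DESeq2 1.42.0, other scalings and filters, no block, one fit over all libraries, and leaving out each replicate or the libraries under 25000 counts. In the joint comparisons, time and replicate number were also entered as separate blocks. The libraries held 11985 to 175429 counts.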

Additional observations from a re-analysis of the deposited data

How the results depend on the processing

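The replicate number, used as a block, is not known to pair the libraries. Deviations of same-numbered libraries correlated above 0.1 in 49 of 54 pairs, and at 0.098 to 0.408 on average over 18 comparisons. As a hint from the data only, 31 of 36 libraries correlated best with their own number in other conditions. Without the block, the joint log2 fold change of predicted miR-79 for Denuded over Coculture was 0.89, with an adjusted p of 0.89 by edgeR, and that at 22 h 1.23 with an adjusted p of 0.66. No call came or went without the block. Over 379 recomputed values, levels apart, 344 kept direction and side of the threshold.

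The number of matched-time comparisons that called predicted miR-79, 0 as reported, became 1 with no low-count filter, 1 with known and predicted miRNAs fitted apart and 1 without libraries under 25000 counts, and ran from 0 to 2 when each replicate was left out. Between times it became 1 without those shallow libraries and ran from 0 to 1 when replicates were left out. bta-miR-31 was called under no alternative.

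All values whose sign turned were uncalled. For bta-miR-31 with library sizes from deduplicated reads, CBX over Control gave -0.15, Coculture over CBX 0.15 and Denuded over CBX 0.050. That scaling moved the median of all miRNAs by -0.23 to 0.25 in the joint comparisons. With no low-count filter, Coculture over Control gave 0.088 and Denuded over Control 0.022, and without the shallow libraries CBX over Control gave -0.11. Leaving out each replicate gave -0.10 to 0.27 for CBX over Control, -0.25 to 0.12 for Coculture over Control, -0.26 to 0.14 for Denuded over Control, -0.18 to 0.017 for Denuded over Coculture and, at 6 h, -0.60 to 0.025 for Denuded over CBX (-0.32 as reported). For predicted miR-79, Coculture over Control over 6 and 22 h gave 0.14 with DESeq2, 0.12 with no filter, 0.014 with the stricter filter, 0.084 with deduplicated reads and -0.21 to 0.41 leaving out replicates. The ratio of the members, leaving out replicates, gave -0.24 to 1.24 for CBX over Control (0.57 as reported), -0.24 to 0.83 for Coculture over Control (0.46) and -0.45 to 0.11 for Coculture over CBX (-0.11). Pearson's r of the members, 0.0006 as reported, was -0.020 from plain CPM, -0.10 without the shallow libraries and 0.28 (rho 0.38) from counts per deduplicated read. The cause was not tested.

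For Denuded over Coculture over both times, the log2 fold change of predicted miR-79 stayed between 0.82 and 0.93 over 14 alternatives, with an adjusted p of 0.030 to 1. It was under 0.05 in 3 of them: DESeq2 (0.034), edgeR with no low-count filter (0.030) and edgeR with its robust option (0.038). Scaling each table by its own total raised the mean levels 2.18- to 2.51-fold for bta-miR-31 and 1.66- to 1.86-fold for predicted miR-79. Depth limits predicted miR-79 in the 3 shallow libraries, where it had 3, 8 and 6 counts.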
